A study of Mus musculus with 24 samples.

Results

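Lung RNA from 12 libraries of mice on a diet rich in docosahexaenoic acid (DHA) was compared with lung RNA from 12 libraries of mice on a control diet, which together are 24 of the 24 libraries in the series. Each diet was combined with an exposure to filtered air or to ozone, giving 4 groups of 6 libraries: control diet with filtered air, DHA diet with filtered air, control diet with ozone, and DHA diet with ozone. All 24 libraries entered the comparison, and exposure was an additive term, so that the value given for each gene is the diet difference common to both exposures. The labels used here name no strain, genotype, sex or age of the mice, no amount of DHA, and no ozone dose or time. They also do not say that each library came from a separate mouse, so the p-values stand for library-to-library spread, which may be technical. The study is titled as one of DHA protecting the lung from ozone-induced inflammation through its oxylipins.

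DHA is a long-chain omega-3 polyunsaturated fatty acid that is built into membrane phospholipids. Phospholipases A2 release it, and lipoxygenases, cyclooxygenases and cytochromes P450 turn it into oxylipins, a group that includes the pro-resolving lipid mediators. In the liver, dietary omega-3 fatty acids are known for lowering lipogenic genes under the transcription factor SREBP1 and for acting on the PPAR receptors. The lung is a mixture of airway epithelium (ciliated, club and goblet cells), alveolar epithelium, endothelium, fibroblasts and leukocytes, and ozone is a reactive gas that damages airway surfaces. In RNA from whole tissue, fewer cells of a type and less RNA per cell cannot be told apart.

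Total counts ran from 18053493 to 26225630 per library. Of 26253 genes in the deposited table, 16153 passed the filter on low counts and were tested. The secretory protein gene Scgb1a1 took between 8.42% and 12.3% of all counts in the control-diet libraries and between 5.51% and 10.2% in the DHA-diet libraries. The defining genes of lung tissue, Scgb1a1 of club cells and Sftpc of alveolar type 2 cells, were high in all 24 libraries. Some libraries stood apart from others of their group. Control-diet air libraries 1 to 3 had lower transcripts of cytosolic ribosomal proteins, with a mean level over the 76 genes of 6.34, 6.32 and 6.27 on the scale of log2 CPM (CPM being a library's counts scaled to the same total) against 6.67 to 6.72 in libraries 4 to 6. DHA-diet ozone libraries 1 and 2 had the highest mean neutrophil marker levels, at 3.71 and 3.99 log2 CPM, while the other 4 libraries of that group lay between 2.32 and 2.82.

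On the DHA diet, 15 of 20 markers of ciliated airway cells, 4 of 9 of goblet cells and 12 of 30 interferon response genes were lower, and none of these lists had a higher member. Extracellular matrix genes (9 of 29), alveolar type 2 markers (5 of 13), genes of the unfolded protein response (6 of 24) and glucocorticoid-induced genes (4 of 16) were higher, again with none in the other direction. The genes of DHA's own metabolism showed few changes. In the edgeR quasi-likelihood fit, with p-values adjusted over all genes by the Benjamini-Hochberg method, 1144 genes changed at an adjusted p under 0.05, which is 7.08% of the genes tested. Of these, 510 were higher on the DHA diet (3.16% of genes tested) and 634 were lower (3.92%). The median gene among those higher was 1.14-fold up, and the median gene among those lower stood at 0.814 of its control-diet level. A change of at least 1.5-fold was seen for 16 higher and 39 lower genes, and one of at least 2-fold for 2 higher and 7 lower genes. The median log2 fold change of all genes was 0.01, so the lists described next are read against a background close to 0.

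The number of genes called rested on part of 1 group. Without control-diet air libraries 1 to 3, 9 genes were called higher and 4 lower. Without libraries 4 to 6 of the same group, 1004 were called higher and 1105 lower. Without DHA-diet ozone libraries 1 and 2, 532 were called higher and 723 lower. With control-diet air libraries 1 to 3 left out, the median change of the 1144 genes in the called direction was 0.21 on the log2 scale, against 0.24 with all libraries. The 1144 were called with those 3 libraries included, so this describes the genes chosen and is no independent check of them. The 13 genes still called without them were among the 1144, and they include Fkbp5, Cmpk2, Nos2, Npr3, Timp3, Grb10, Lrrc32, Maged2, Myadm, Cyp20a1 and Enpep. With 1 surrogate variable, an unlabelled pattern of variation estimated from the libraries, added to the model, 0 genes were called in either direction. That variable was lowest in DHA-diet ozone library 1, at -0.73, and highest in control-diet air library 2, at 0.35, and it was over 0 in 10 of 12 control-diet libraries and under 0 in 10 of 12 DHA-diet libraries, so it runs partly along the diets themselves.

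**Figure D1:**
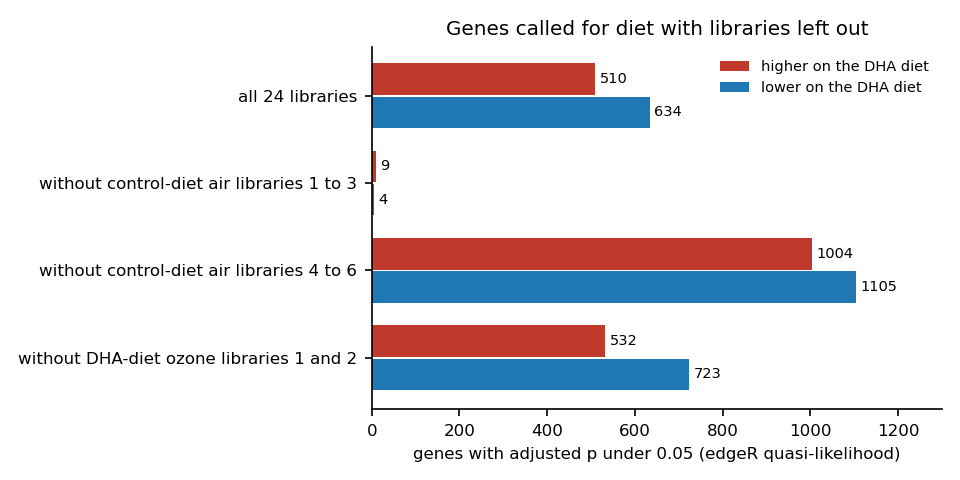
Number of genes with an edgeR quasi-likelihood adjusted p under 0.05 for diet (horizontal axis), higher (red) and lower (blue) on the DHA diet, with all 24 libraries and with 3 sets of libraries left out (vertical axis). The bars fall from 510 and 634 to 9 and 4 without control-diet air libraries 1 to 3 and rise to 1004 and 1105 without libraries 4 to 6 of that group.

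Each exposure also had its own diet contrast, taken from a model of 4 group means on all 24 libraries. The air and ozone contrasts compare different libraries but share the scaling and the estimate of spread. The number called in an exposure therefore also moved with libraries of the other exposure. In filtered air, 186 genes were called for diet (1.15% of genes tested), 117 higher and 69 lower. After ozone, edgeR called 0 genes, with 2260 at an unadjusted p under 0.05 and a smallest adjusted p of 0.0793, while DESeq2 called 75 and limma-voom 19. Of the 186 genes called in air, 166 (89.2%) differed in the same direction after ozone, against 64.1% of all genes tested, and 77 of them had an unadjusted p under 0.05 there. Their median change was 0.34 on the log2 scale in air and 0.13 in the same direction after ozone. The test of the difference between the exposures, the interaction of diet and exposure, called 0 genes with edgeR (988 at an unadjusted p under 0.05, smallest adjusted p 0.166), 5 with DESeq2 and 2 with limma-voom. All 1144 genes of the shared effect had the same sign in both exposures, a property that the additive model favours, and their median change in the called direction was 0.26 in air and 0.23 after ozone.

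**Figure D2:**
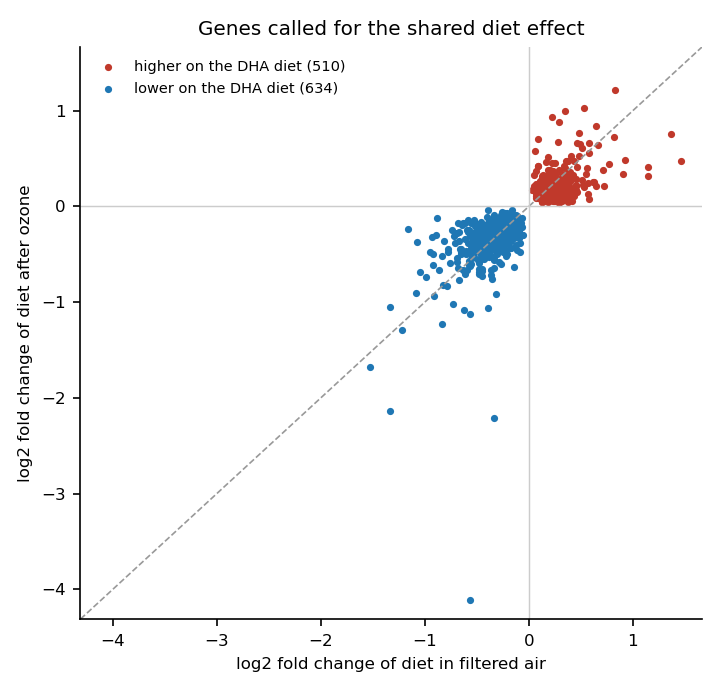
Log2 fold change of diet (DHA over control) in filtered air (horizontal) and after ozone (vertical) for the 1144 genes called for the shared effect, with the 510 higher genes in red, the 634 lower genes in blue and the dashed line marking equal change. All points lie where both changes have the same sign, with Clca1 the lowest at -0.56 in air and -4.11 after ozone.

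Groups that do not overlap at all were rare, with 299 genes in air (1.85%) and 134 after ozone (0.83%). In 5 of 16153 genes (0.031%) the 6 DHA-diet libraries lay entirely on the same side of the 6 control-diet libraries in air and again after ozone: Maged2, Myadm, Emc7, Sparcl1 and Sh3pxd2a, all higher on the DHA diet. Maged2, a gene of the melanoma antigen family at chrX:149589417-149597342 (mm39), measured 43.2, 46.5 and 50.1 CPM (lowest, median and highest library) on the control diet in air and 50.5, 53.6 and 56.6 CPM on the DHA diet in air. After ozone it measured 44.2, 46.3 and 50.4 CPM on the control diet and 52.5, 53.9 and 56.0 CPM on the DHA diet. All 12 DHA-diet libraries were above all 12 control-diet libraries, with a log2 fold change of 0.20 ± 0.03 (SE) and an edgeR adjusted p of 0.00363. Myadm, a membrane protein gene, rose by 0.18 ± 0.03 (adjusted p = 0.00488) and Sparcl1, which encodes a matricellular glycoprotein related to SPARC, by 0.19 ± 0.04 (adjusted p = 0.00925), also with no overlap between the 12 and 12 libraries. Emc7, a subunit of the membrane protein insertion complex of the endoplasmic reticulum, rose by 0.13 ± 0.03, and Sh3pxd2a, the podosome scaffold gene, by 0.27 ± 0.05.

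**Figure D3:**
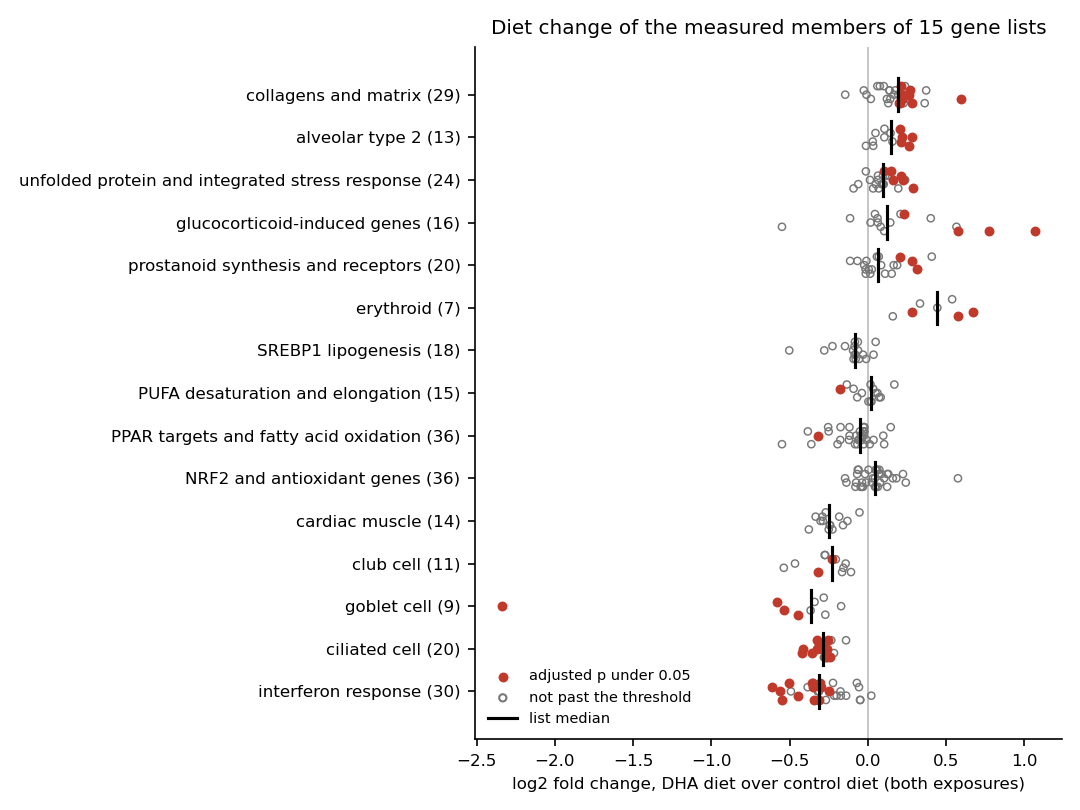
Log2 fold change of DHA over control diet (horizontal axis) for each measured gene of 15 lists (vertical axis, with the number of measured genes in brackets). Filled red points have an edgeR adjusted p under 0.05, open points do not, and black lines are list medians, which lie at -0.29 for the 20 ciliated cell genes, -0.31 for the 30 interferon response genes and 0.19 for the 29 matrix genes.

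Of the 57 gene lists, the ciliated cell markers had the largest share of members called. Motile cilia are the beating hairs of ciliated airway cells, driven by axonemal dynein motors on a skeleton of microtubules. Of the 20 ciliated cell markers, 15 fell and 0 rose, where 3.92% of all genes fell, and all 20 had a log2 fold change under 0 (47.5% of all genes did), from -0.42 to -0.14, with a median of -0.29. The median was -0.27 in air and -0.29 after ozone. Dnah10, a dynein heavy chain gene at chr5:124802149-124911373 (mm39), measured 61.7, 80.8 and 96.7 CPM on the control diet in air and 53.7, 59.7 and 64.8 CPM on the DHA diet in air. After ozone the corresponding values were 55.8, 58.0 and 65.2 CPM on the control diet and 27.5, 46.2 and 59.0 CPM on the DHA diet. The ranges overlapped in both exposures, and after ozone the highest DHA-diet library lay above the control-diet median. The log2 fold change was -0.42 ± 0.08 (SE, adjusted p = 0.00635).

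The other structural parts of the cilium moved the same way. Tekt2 and Tekt4, which encode tektins inside the axonemal microtubules, fell by 0.40 ± 0.07 (adjusted p = 0.00531) and 0.31 ± 0.07 (adjusted p = 0.0125) on the log2 scale. Dnah12, another dynein heavy chain gene, fell by 0.42 ± 0.10 (adjusted p = 0.014) and the radial spoke gene Rsph1 by 0.30 ± 0.07 (adjusted p = 0.0181). Foxj1, the transcription factor that directs motile cilium formation, had a log2 fold change of -0.22 ± 0.08 that did not pass (adjusted p = 0.0842). Among gene families taken by the start of their symbol after the values were seen, 7 of 15 Dnah genes, 15 of 33 Cfap genes, 4 of 5 Tekt genes, 2 of 6 Rsph genes and 3 of 3 Drc genes fell, and 0 rose. Over all genes 3.92% fell. Some family members, among them Dnah12, Tekt4 and Rsph1, are also in the ciliated list, so these counts partly repeat its calls. Of 14 Ift genes, which serve transport in all cilia and not only motile ones, 2 fell (14.3%) and the median was -0.13.

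The ciliated cell level moved with the libraries that stood apart. Averaged over its 20 genes, it was 6.07, 6.21 and 6.12 log2 CPM in control-diet air libraries 1 to 3, 5.92, 5.82 and 5.56 in libraries 4 to 6, and 5.57 to 5.87 on the DHA diet in air. After ozone it was 5.66 to 5.97 on the control diet and 4.93 to 5.85 on the DHA diet, with library 1 lowest. Without control-diet air libraries 1 to 3 the list had a median of -0.24 with 0 of 20 called, without DHA-diet ozone libraries 1 and 2 it had a median of -0.27 with 17 called, and with the surrogate variable the median was -0.02 with 0 called. Leaving out single libraries gave between 6 and 19 called. The fewest, 6, 7 and 9, came without control-diet air libraries 2, 1 and 3. It was also 9 on removal of library 2 or 5 of the DHA-diet air group and of library 1 or 4 of the control-diet ozone group.

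**Figure D4:**
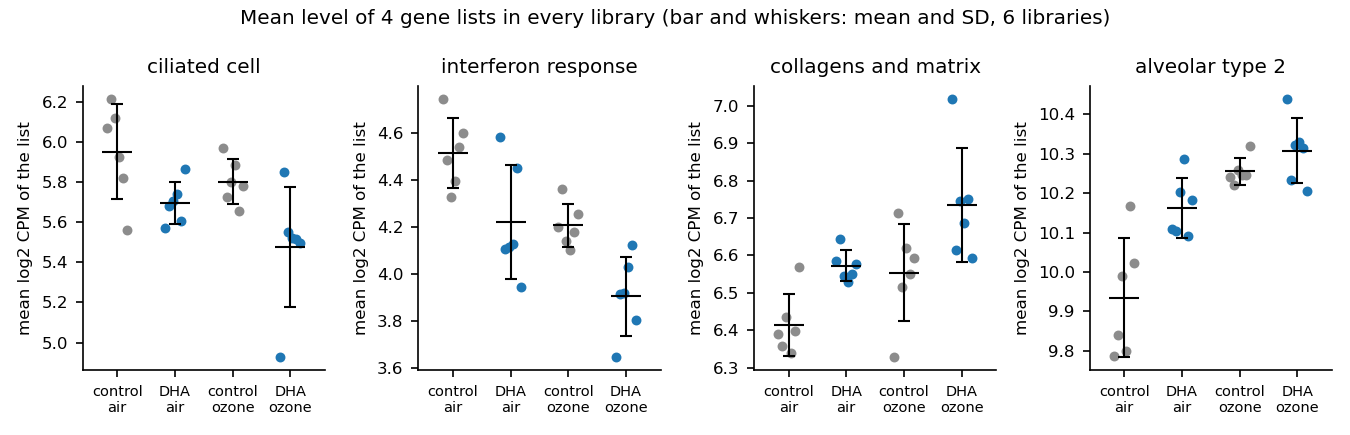
Mean log2 CPM over the measured genes of 4 lists (vertical axes) in each library of the 4 groups (horizontal axes), with control-diet libraries in grey, DHA-diet libraries in blue, and bars and whiskers giving the mean and SD of 6 libraries. The ciliated level of DHA-diet ozone library 1, at 4.93, lies far under the other 5 of its group, and the interferon response level is lower on the DHA diet than on the control diet in air (mean 4.22 against 4.52) and after ozone (3.91 against 4.21).

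Promoters were searched for the X-box, the element bound by the RFX factors that govern ciliary genes, written as GTNNCC and GGNAAC with any 2 bases between (N is any base), on both strands of the 250 bases before each start in the RefSeq promoter set (build GRCm38.p6, which differs from the mm39 build of the counts). A promoter was found for 12718 of the 16153 genes tested. The motif was present in 1.06% of all 32851 promoter entries, in 1.63% of tested genes, in 24 of the 490 lower genes with a promoter (4.9%) and in 2 of the 389 higher genes (0.514%). In the ciliated list it was present in 1 of 16 genes. Shown here, with the X-box in capitals, are stretches from 4 lower genes with known parts in cilia: the tektin gene Tekt4 (chr17:25471390-25471483, plus strand), Nphp4 of the ciliary transition zone (chr4:152477892-152477964, plus strand), the kinesin gene Kif9 (chr9:110476927-110476993, plus strand) and Cfap206, linked to the radial spokes (chr4:34730207-34730269, minus strand). The log2 fold changes of the latter 3 were -0.34, -0.27 and -0.29, and the calls of Kif9 and Cfap206 were lost in 5 and 8 of the 24 fits that left out 1 library.
Tekt4: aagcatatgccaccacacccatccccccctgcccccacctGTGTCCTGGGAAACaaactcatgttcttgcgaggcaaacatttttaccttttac
Nphp4: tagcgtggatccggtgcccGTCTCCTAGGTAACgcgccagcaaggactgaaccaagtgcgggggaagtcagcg
Kif9: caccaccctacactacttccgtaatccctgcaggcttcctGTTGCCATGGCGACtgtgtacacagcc
Cfap206: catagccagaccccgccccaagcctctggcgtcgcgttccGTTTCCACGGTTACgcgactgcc
A match is a description of these letters and does not show that a factor bound there.

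Secretory airway cells showed a shift of the same sign. All 11 club cell markers and all 9 measured goblet cell markers had a log2 fold change under 0, with medians of -0.23 and -0.37. Of the club markers 2 fell (18.2%) and of the goblet markers 4 (44.4%), against 3.92% of all genes. The club count was 2 to 5 in the fits that left out 1 library, with 4 without control-diet air library 5 or control-diet ozone library 5 and 5 without control-diet air library 6. Gabrp, a GABA receptor subunit gene of airway epithelium at chr11:33500781-33528958 (mm39), measured 169, 225 and 273 CPM on the control diet and 162, 180 and 185 CPM on the DHA diet in air, then 211, 234 and 277 CPM on the control diet and 165, 182 and 247 CPM on the DHA diet after ozone. The groups overlapped in both exposures, and Gabrp fell by 0.32 ± 0.06 (adjusted p = 0.00689). Cckar, the cholecystokinin receptor gene, fell by 0.23 ± 0.06 (adjusted p = 0.0164). Scgb1a1 itself, the main club cell product, had a log2 fold change of -0.21 ± 0.08 (adjusted p = 0.13).

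The goblet genes were the mucin gene Muc5ac, the mucus proteins Fcgbp and Clca1, and Bpifb1, a secreted protein of the airway mucosa. Bpifb1 fell by 0.53 ± 0.14 (adjusted p = 0.0227), from group medians of 380 and 386 CPM on the control diet in air and after ozone to 267 and 299 CPM on the DHA diet. Clca1 (chr3:144710298-144738538, mm39) had the lowest log2 fold change among the genes tested, -2.34 ± 0.66 (adjusted p = 0.0316), and its libraries were uneven. It measured 1.26, 3.03 and 12.2 CPM on the control diet and 0.911, 3.33 and 5.27 CPM on the DHA diet in air, then 0.309, 11.5 and 88.3 CPM on the control diet and 0.611, 1.19 and 2.61 CPM on the DHA diet after ozone. The lowest library of all was thus on the control diet, and the control-diet ozone libraries reached the highest values. The log2 fold change was -0.56 in air and -4.11 after ozone, with an unadjusted p of 0.00392 in the edgeR interaction test, which did not pass adjustment over all genes. Calls for Fcgbp and Muc5ac, with log2 fold changes of -0.58 and -0.45, were lost in 16 and 11 of the 24 fits that left out 1 library. The goblet count was 1 to 6 in those fits. It was 1 without control-diet ozone library 4 or DHA-diet ozone library 1, and 2 without control-diet air library 1, 2 or 3, DHA-diet air library 1, 3 or 5, control-diet ozone library 6 or DHA-diet ozone library 3, 4 or 6. The goblet list kept 0 of its 4 calls without control-diet air libraries 1 to 3, where its median was -0.34, and 1 call without DHA-diet ozone libraries 1 and 2.

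Interferon response genes were lower as well. Interferons bind cell surface receptors that switch on antiviral genes, many through the interferon-stimulated response element of their promoters. Of 30 interferon response genes, 12 fell and 0 rose (3.92% of all genes fell), 29 had a log2 fold change under 0, and the median was -0.31, at -0.27 in air and -0.29 after ozone. Cmpk2, the mitochondrial nucleotide kinase gene at chr12:26519214-26529837 (mm39), shared the smallest adjusted p of the fit, 0.00292. It measured 32.9, 37.2 and 39.5 CPM on the control diet and 25.9, 28.2 and 31.3 CPM on the DHA diet in air, then 26.8, 29.6 and 31.1 CPM on the control diet and 20.3, 24.3 and 28.1 CPM on the DHA diet after ozone. The groups did not overlap in air and overlapped slightly after ozone, and Cmpk2 fell by 0.31 ± 0.05, a call that held without control-diet air libraries 1 to 3 (adjusted p = 0.024).

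Among the signalling genes, Irf7, the transcription factor that amplifies interferon production, fell by 0.36 ± 0.09 (adjusted p = 0.0155). Usp18, which removes ISG15 from proteins and dampens interferon signalling, fell by 0.31 ± 0.06 (adjusted p = 0.00734). Among the effectors, Oasl2 fell by 0.34 ± 0.07 (adjusted p = 0.00652), Ifi44 by 0.56 ± 0.13 (adjusted p = 0.0144) and Ifi204 by 0.59 ± 0.11 (adjusted p = 0.00635). By symbol, 6 of 8 measured Oas genes (75%) and 3 of 11 Gbp genes (27.3%) fell and 0 rose, where 3.92% of all genes fell, with 8 and 11 log2 fold changes under 0. Of 6 Ifit genes 1 fell, with a median of -0.10 and 5 under 0, and of 6 immunity-related GTPase genes 1 fell, with a median of -0.24 and 6 under 0. Oas, Gbp and Ifi200 genes have close copies in the genome, and the labels do not record how reads shared between copies were counted, so the values of single members are uncertain. Over the 30 genes, the mean level was 4.33 to 4.75 log2 CPM on the control diet and 3.95 to 4.58 on the DHA diet in air, and 4.11 to 4.36 against 3.65 to 4.13 after ozone, so single libraries overlapped. Without control-diet air libraries 1 to 3 the median was -0.30 with 1 of 30 called, and with the surrogate variable it was -0.25 with 0 called.

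**Figure D5:**
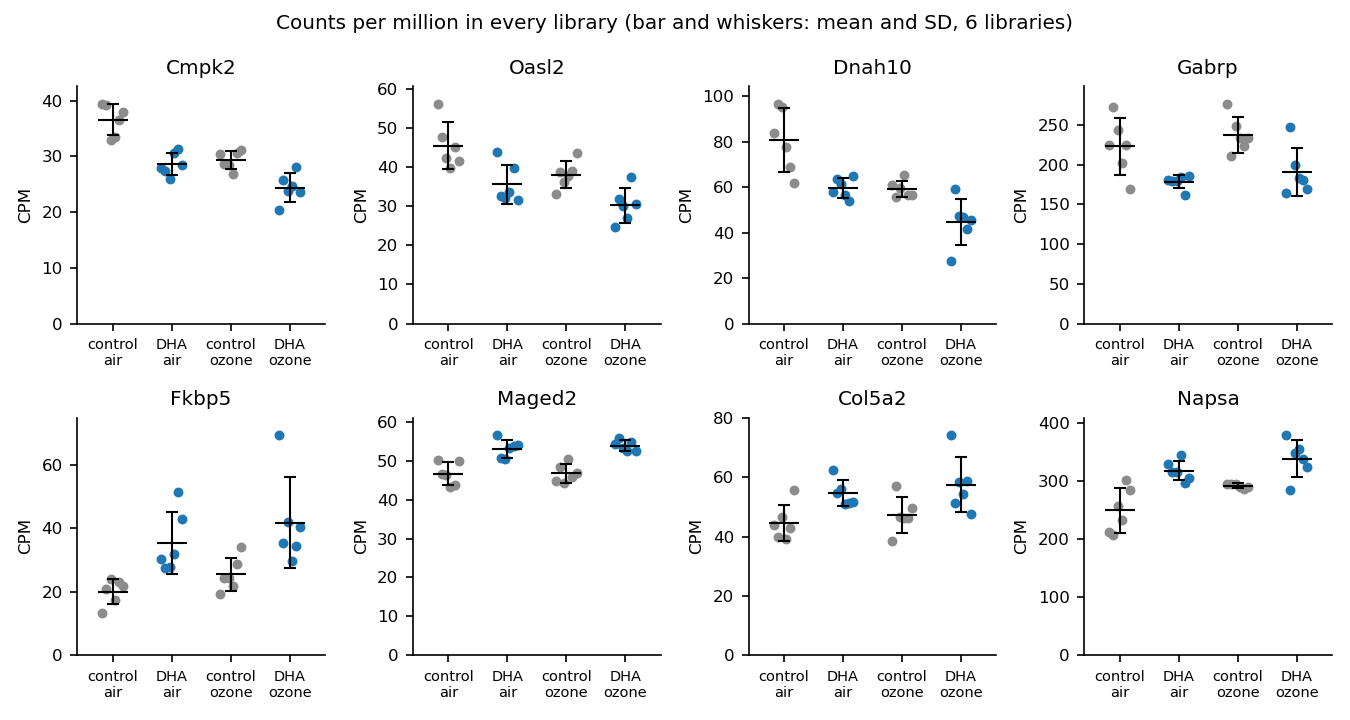
CPM (vertical axes) of 8 genes in every library of the 4 groups (horizontal axes), control diet in grey and DHA diet in blue, with bars and whiskers for the mean and SD of 6 libraries. Cmpk2, Oasl2, Dnah10 and Gabrp are lower on the DHA diet, Fkbp5, Maged2, Col5a2 and Napsa are higher, and of the 8 only Maged2 separates all 12 from all 12 libraries.

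The interferon-stimulated response element, searched as GAAA, any 2 bases and GAAA again on both strands of the same promoters, was present in 2.98% of all promoter entries and 3.29% of tested genes. It was present in 14 of the 21 interferon genes with a promoter (66.7%), which describes the list and not the diet. It was present in 29 of 490 lower genes (5.92%) and 13 of 389 higher genes (3.34%). Of the 14 genes, 4 fell: Isg15, which encodes a ubiquitin-like modifier, by 0.35, Oas1a and Oas3, which make the activator of ribonuclease L, by 0.44 and 0.61, and Ifit1, which binds foreign RNA, by 0.30 on the log2 scale. The call of Ifit1 (adjusted p = 0.0459) was lost in 19 of the 24 fits that left out 1 library and in 6 of 13 other alternatives, and that of Oas3 in 3 of the 24. The stretches of these 4 are shown with the element in capitals: Isg15 (chr4:156200835-156200936, minus strand), Oas1a (chr5:120907526-120907585, minus strand), Oas3 (chr5:120777685-120777774, minus strand) and Ifit1 (chr19:34640745-34640853, plus strand), all in GRCm38.p6. In Ifit1 the element reads in the reverse orientation, with TTTC in place of GAAA, at 2 places.
Isg15: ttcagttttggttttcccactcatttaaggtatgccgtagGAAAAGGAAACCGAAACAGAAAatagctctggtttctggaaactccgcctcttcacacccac
Oas1a: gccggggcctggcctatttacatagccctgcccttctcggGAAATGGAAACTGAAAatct
Oas3: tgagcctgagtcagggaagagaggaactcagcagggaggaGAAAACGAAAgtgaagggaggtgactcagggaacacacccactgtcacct
Ifit1: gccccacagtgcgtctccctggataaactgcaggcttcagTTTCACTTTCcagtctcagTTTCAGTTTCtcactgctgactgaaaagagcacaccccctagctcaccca
In Isg15 and Oas1a the capitals join overlapping matches, 3 in Isg15 and 2 in Oas1a.

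Some glucocorticoid-induced genes rose. Glucocorticoids act through a nuclear receptor that switches on Fkbp5, a co-chaperone feeding back on that receptor, and Zbtb16, a transcription repressor. Of 16 such genes 4 rose and 0 fell, where 3.16% of all genes rose, and the median was 0.12. The lowest log2 fold change in the list was -0.55, and 6 of 16 were under 0 in air and 3 after ozone. The count was 2 to 5 in the fits that left out 1 library, with 2 without control-diet air library 1 or 2. Fkbp5 (chr17:28617727-28705124, mm39) measured 13.1, 21.3 and 23.9 CPM on the control diet and 27.4, 31.1 and 51.4 CPM on the DHA diet in air, then 19.3, 24.3 and 34.0 CPM on the control diet and 29.6, 37.8 and 69.3 CPM on the DHA diet after ozone. The groups did not overlap in air and overlapped after ozone. Fkbp5 was 1.71-fold higher on the DHA diet, a log2 fold change of 0.77 ± 0.13 (adjusted p = 0.00468), and stayed called without control-diet air libraries 1 to 3 (log2 fold change 0.74, adjusted p = 0.0419). Its call was lost with the surrogate variable.

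Zbtb16 was 2.10-fold higher, with a log2 fold change of 1.07 ± 0.30 (adjusted p = 0.03), but its libraries spread widely. On the control diet in air it measured 26.7, 34.5 and 102.9 CPM and on the DHA diet 28.1, 97.0 and 303.8 CPM, and its call was lost in 5 of the 24 fits that left out 1 library. The metallothionein genes Mt1 and Mt2, which encode small zinc-binding proteins, rose by 0.23 ± 0.06 (adjusted p = 0.0315) and 0.57 ± 0.14 (adjusted p = 0.0174), and 4 of the 24 fits lost Mt1. Tsc22d3, another textbook glucocorticoid target, had a log2 fold change of 0.21 ± 0.12 (adjusted p = 0.287). Outside the list, the kinase gene Map3k6 rose by 0.74 ± 0.15 (adjusted p = 0.00701) and the actin-associated gene Fam107a by 0.61 ± 0.17 (adjusted p = 0.0278), a call lost in 3 of the 24 fits. DHA-diet ozone library 1 was the highest of its group for Fkbp5 (69.3 CPM), Map3k6 (69.7 CPM), Mt2 (68.7 CPM) and Fam107a (18.6 CPM). The circadian clock is a loop of transcription factors in most tissues, and glucocorticoids are among its known inputs. Of the circadian clock list, 2 of 20 genes rose (10%, against 3.16% of all genes) and 0 fell: Bhlhe40 by 0.27 ± 0.06 (adjusted p = 0.00956) and Per2 by 0.33 ± 0.10 (adjusted p = 0.0383). Per2 lost its call in 13 of the 24 fits that left out 1 library, and the count for the list was 1 to 4. For both clock genes the difference lay in air, at 0.43 and 0.58, against 0.11 and 0.08 after ozone, and the interaction had unadjusted p-values of 0.00504 and 0.00675 without passing adjustment over all genes. Over the 20 clock genes the median was 0.28 in air and -0.05 after ozone, where 12 were under 0. The edgeR interaction test gave 11 of the 20 an unadjusted p under 0.05, against 988 of 16153 genes tested. No gene passed adjustment there. Zbtb16, Mt1, Mt2, Map3k6, Fam107a, Bhlhe40 and Per2 all lost their calls without control-diet air libraries 1 to 3, and also with the surrogate variable.

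The glucocorticoid response element, searched on both strands as GNACA and TGTNC with any 3 bases between, was present in 0.387% of promoter entries, 0.362% of tested genes, 5 of 389 higher genes (1.29%) and 1 of 490 lower genes (0.204%). In the list it was present in 2 of 14 genes with a promoter, Mt1 and Sgk1. Sgk1 was not called, with a log2 fold change of 0.06 (edgeR unadjusted p = 0.31). The stretches of the 3 named higher genes that hold it are shown with the element in capitals: Map3k6 (chr4:133240597-133240689, plus strand), Fam107a (chr14:8309845-8309937, minus strand) and Mt1 (chr8:94178955-94179047, plus strand), in GRCm38.p6.
Map3k6: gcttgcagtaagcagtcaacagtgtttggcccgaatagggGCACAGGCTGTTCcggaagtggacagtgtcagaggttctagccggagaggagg
Fam107a: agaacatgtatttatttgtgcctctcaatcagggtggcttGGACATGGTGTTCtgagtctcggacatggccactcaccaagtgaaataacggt
Mt1: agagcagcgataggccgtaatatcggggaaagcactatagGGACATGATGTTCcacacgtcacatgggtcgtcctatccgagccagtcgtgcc
No stretch of these letters lay in the 250 bases before the Fkbp5 start, which says nothing about sites elsewhere.

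Part of the extracellular matrix genes rose. Of 29 collagen and matrix genes 9 rose (31%, against 3.16% of all genes) and 0 fell, 26 had a log2 fold change over 0 (52.5% of all genes did), and the median was 0.19, at 0.21 in air and 0.19 after ozone. The proteoglycan gene Bgn (chrX:72527207-72539543, mm39) measured 540, 587 and 656 CPM on the control diet and 652, 694 and 789 CPM on the DHA diet in air, then 511, 613 and 652 CPM on the control diet and 639, 670 and 696 CPM on the DHA diet after ozone. The groups overlapped by a narrow margin in each exposure, and Bgn rose by 0.20 ± 0.04 (adjusted p = 0.00778). The collagen genes Col5a2, Col6a1 and Col4a1 rose by 0.28 ± 0.07 (adjusted p = 0.0147), 0.22 ± 0.05 (adjusted p = 0.0174) and 0.26 ± 0.07 (adjusted p = 0.0296), and Sparc, which encodes a collagen-binding protein, by 0.21 ± 0.05 (adjusted p = 0.0159). Among families taken by symbol after the values were seen, 7 of 35 collagen genes rose (20%, against 3.16% of all genes) and 1, Col8a2, fell (2.86%, against 3.92%), with 9 under 0 and a median of 0.13. Of 11 laminin genes 0 passed, with 8 at an unadjusted p under 0.05 and a median of 0.14. Spp1, the gene of the cytokine-like matrix protein osteopontin, rose by 0.59 ± 0.16 (adjusted p = 0.024) and was highest in DHA-diet ozone library 1.

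Of the 19 metalloproteinase and inhibitor genes, 2 rose (10.5%, against 3.16% of all genes) and 1 fell (5.26%, against 3.92%), the latter Adam8, a call lost in 10 of the 24 fits that left out 1 library. Timp3, the matrix-bound metalloproteinase inhibitor gene, rose by 0.23 ± 0.04 (adjusted p = 0.00531) and did not overlap in air, and the metalloproteinase gene Mmp19 rose by 0.42 ± 0.09 (adjusted p = 0.00892). Of 16 fibroblast markers 2 rose (12.5%), with a median of 0.11 and between 1 and 4 in the fits that left out 1 library. Without control-diet air libraries 1 to 3 the matrix median was 0.16 with 0 of 29 called, and with the surrogate variable 0.04 with 0 called. Leaving out single libraries kept between 7 and 13 of the 29 called.

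Surfactant-producing alveolar type 2 cells and the secretory pathway also showed rises. Of 13 type 2 genes 5 rose (38.5%, against 3.16% of all genes) and 0 fell, with a median of 0.14. Napsa, the aspartic protease gene that processes surfactant protein B (chr7:44221869-44236271, mm39), measured 207, 244 and 302 CPM on the control diet and 296, 316 and 344 CPM on the DHA diet in air, then 286, 293 and 296 CPM on the control diet and 285, 343 and 379 CPM on the DHA diet after ozone. The groups overlapped, narrowly in air, and Napsa rose by 0.28 ± 0.05 (adjusted p = 0.00568). Sftpc, the surfactant protein C gene, rose by 0.26 ± 0.06 (adjusted p = 0.0169) and Lamp3, a lamellar body gene, by 0.20 ± 0.05 (adjusted p = 0.0184). The list median was 0.21 in air and 0.09 after ozone, with 1 of 13 under 0 in air and 5 after ozone. In the edgeR interaction test 4 of the 13 had an unadjusted p under 0.05. Napsa, Sftpc and Lamp3 lost their calls without control-diet air libraries 1 to 3, and also with the surrogate variable. Of 12 alveolar type 1 genes 0 passed, with 2 at an unadjusted p under 0.05.

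Of 24 genes of the unfolded protein and integrated stress response, 6 rose (25%, against 3.16% of all genes) and 0 fell, with a median of 0.10. These include the endoplasmic reticulum chaperone gene Hspa5, up by 0.21 ± 0.06 (adjusted p = 0.0274), and Pdia4, a disulfide isomerase gene, up by 0.16 ± 0.04 (adjusted p = 0.0124). Leaving out single libraries gave between 2 and 10 calls for this list. The 2 came without DHA-diet air library 2, control-diet ozone library 3 or DHA-diet ozone library 4, and the 10 without control-diet air library 6 or DHA-diet ozone library 2. The count was 3 without control-diet air library 1, 2 or 3, control-diet ozone library 4 or 5, or DHA-diet ozone library 1. The cytosolic chaperone gene Hspa8 was the 1 of 14 heat shock genes called (7.14%, against 3.16% of all genes), up by 0.37 ± 0.11 (adjusted p = 0.0425), and 12 of the 24 fits that left out 1 library lost it. Of the 14, 13 had a log2 fold change over 0 (52.5% of all genes did), with a median of 0.27 and 8 at an unadjusted p under 0.05. The count was 0 to 3 in the fits that left out 1 library.

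Lipid genes, the set most directly tied to dietary fatty acids, had few calls. Of 18 SREBP1 lipogenesis genes 0 passed, with a median log2 fold change of -0.08 and 2 at an unadjusted p under 0.05. Of the 18, 16 had a log2 fold change under 0 (47.5% of all genes did), 10 in air alone and 17 after ozone. Scd1, the stearoyl-CoA desaturase gene that dietary polyunsaturated fats are known to lower in liver, had a log2 fold change of -0.15 ± 0.13 (adjusted p = 0.545). It measured 765, 787 and 1103 CPM on the control diet and 627, 763 and 1247 CPM on the DHA diet in air, with full overlap. The fatty acid synthase gene Fasn had -0.03 ± 0.07 (adjusted p = 0.836), and Insig1, the sterol-sensing partner of SREBP cleavage and the smallest p of the list, -0.23 ± 0.08 (adjusted p = 0.0729). The desaturase genes Fads1 and Fads2, which make long-chain polyunsaturated fatty acids from dietary precursors, had 0.02 ± 0.04 and 0.08 ± 0.04, with adjusted p-values of 0.85 and 0.224.

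In the list of 15 desaturation and elongation genes, Fads6 fell by 0.18 ± 0.06 (adjusted p = 0.0474), and 17 of the 24 fits that left out 1 library lost it. This was 1 of 15 (6.67%, against 3.92% of all genes). Among 36 genes of fatty acid oxidation or under PPAR control, 1 fell (2.78%, against 3.92% of all genes) and 0 rose: Ppargc1a, the mitochondrial coactivator gene, by 0.32 ± 0.08 (adjusted p = 0.0162). Of the 36, 31 had a log2 fold change under 0 (47.5% of all genes did), with a median of -0.05, and 9 had an unadjusted p under 0.05. Of 12 LXR target and sterol export genes, 1 rose (8.33%, against 3.16% of all genes): Nr1h3, which encodes the oxysterol receptor LXR alpha itself, by 0.29 ± 0.06 (adjusted p = 0.00657). Of 21 cholesterol genes, 24 phospholipid remodelling and DHA transport genes and 36 NRF2 and antioxidant genes, 0 passed, with 3, 5 and 5 at an unadjusted p under 0.05.

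The genes of oxylipin formation and sensing had few calls outside the prostanoid list. Of 17 phospholipases A2, Pla2g4a, the cytosolic enzyme that frees arachidonic acid and other polyunsaturated fatty acids, fell by 0.18 ± 0.05 (adjusted p = 0.0343), a call lost in 9 of 24 fits without 1 library. This was 1 of 17 (5.88%, against 3.92% of all genes). Of 18 lipoxygenase, epoxide hydrolase and related genes and of 17 oxylipin and fatty acid receptors, 0 passed, with 2 and 3 at an unadjusted p under 0.05. Among 20 prostanoid genes 3 rose and 0 fell: Ptgis, the prostacyclin synthase gene, by 0.21 ± 0.05 (adjusted p = 0.0236), and the prostaglandin E2 receptor genes Ptger4 by 0.28 ± 0.08 (adjusted p = 0.0257) and Ptger2 by 0.31 ± 0.09 (adjusted p = 0.0435). Of these, Ptger2 lost its call in 14 of 24 fits without 1 library. The 3 of 20 is 15% of the list, against 3.16% of all genes. Without DHA-diet air library 5 both receptor genes lost their call and 1 of 20 was left.

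Retinoid genes were looked at after their values were seen, because Cyp26b1 had one of the 10 lowest fold changes. Cyp26b1, which degrades retinoic acid (chr6:84548396-84570891, mm39), measured 15.95, 42.7 and 62.7 CPM on the control diet and 15.4, 16.7 and 28.6 CPM on the DHA diet in air, then 18.2, 26.7 and 67.1 CPM on the control diet and 6.53, 15.99 and 34.3 CPM on the DHA diet after ozone. The groups overlapped in both exposures, and its level on the DHA diet was 0.500 of that on the control diet, a log2 fold change of -1.0 ± 0.25 (adjusted p = 0.0173). The retinoic acid receptor gene Rarb fell by 0.35 ± 0.07 (adjusted p = 0.00635) and the retinal reductase gene Dhrs3 by 0.16 ± 0.04 (adjusted p = 0.0201), both textbook retinoic acid targets. Adh1, an alcohol dehydrogenase gene that can oxidise retinol, rose by 0.21 ± 0.04 (adjusted p = 0.00532). Of the 14 retinoid genes so chosen, 3 fell (21.4%, against 3.92% of all genes) and 1 rose (7.14%, against 3.16%). By sign alone 7 were lower and 7 higher, with a median of -0.0004. Cyp26b1, Rarb, Dhrs3 and Adh1 all lost their calls without control-diet air libraries 1 to 3.

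Among immune genes outside the interferon response, 1 of 19 inflammatory cytokine and acute phase genes fell and 1 rose (5.26% each, against 3.92% and 3.16% of all genes). Of the 19, 15 had a log2 fold change over 0, with a median of 0.21 and 7 at an unadjusted p under 0.05. Of 26 CC and CXC chemokine genes 1 rose (3.85%) and 0 fell. Among these, 17 were over 0, with a median of 0.11 and 9 at an unadjusted p under 0.05. Nos2, the inducible nitric oxide synthase gene, measured 4.94, 6.27 and 9.30 CPM on the control diet and 3.08, 3.99 and 5.35 CPM on the DHA diet in air, and fell by 0.56 ± 0.11 (adjusted p = 0.00675). Its call held without control-diet air libraries 1 to 3 (log2 fold change -0.61, adjusted p = 0.0496). Arg2, the mitochondrial arginase gene, which draws on the same substrate, rose by 0.51 ± 0.12 (adjusted p = 0.0123), a call lost without control-diet air libraries 1 to 3. The monocyte and macrophage receptor genes Cx3cr1 and Csf1r fell by 0.41 ± 0.08 (adjusted p = 0.00635) and 0.15 ± 0.04 (adjusted p = 0.0222). Both calls were lost without control-diet air libraries 1 to 3. They were the 2 of 16 genes of that list that fell (12.5%, against 3.92% of all genes). In the same list 1 gene rose (6.25%, against 3.16%), 10 had a log2 fold change over 0, and the median was 0.08. Of 18 alveolar macrophage markers 0 passed, with 5 at an unadjusted p under 0.05. Of 14 neutrophil markers 1 fell (7.14%, against 3.92% of all genes), and the count was 0 to 1 in the fits that left out 1 library. The neutrophil list medians were -0.26 in air and 0.64 after ozone, where DHA-diet ozone libraries 1 and 2 had the highest levels of their group, as given above. In the edgeR interaction test 7 of the 14 had an unadjusted p under 0.05.

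Other genes with large changes or small p-values fell in no list. The alpha-2A adrenergic receptor gene Adra2a (chr19:54033690-54037414, mm39) measured 3.37, 5.00 and 6.72 CPM on the control diet and 2.77, 3.21 and 3.54 CPM on the DHA diet in air, then 3.205, 5.16 and 8.30 CPM on the control diet and 1.35, 2.92 and 3.26 CPM on the DHA diet after ozone. The groups overlapped narrowly, and its level on the DHA diet was 0.554 of that on the control diet (log2 fold change -0.85 ± 0.16, adjusted p = 0.00531). Oit1, a gene of the secreted FAM3 protein family, fell by 0.64 ± 0.11 (adjusted p = 0.00468). Npr3, the clearance receptor gene for natriuretic peptides, rose by 0.56 ± 0.10 (adjusted p = 0.00489), with no overlap after ozone. Lrrc32, which encodes the GARP carrier of latent TGF-beta, rose by 0.33 ± 0.05 (adjusted p = 0.00449), and the growth factor adaptor gene Grb10 by 0.25 ± 0.04 (adjusted p = 0.00488). Among the smallest p-values were also Enpep, the glutamyl aminopeptidase gene, up by 0.19 ± 0.03 (adjusted p = 0.00363), and Cyp20a1, a cytochrome P450 gene, up by 0.19 ± 0.03 (adjusted p = 0.00363). Adra2a and Oit1 lost their calls without control-diet air libraries 1 to 3, while Npr3, Lrrc32, Grb10, Enpep and Cyp20a1 kept theirs. With the surrogate variable all of these genes lost their calls.

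Markers of tissue beside the lung parenchyma were looked at as well. Of 14 cardiac muscle genes 0 passed, with 8 at an unadjusted p under 0.05, yet all 14 had a log2 fold change under 0, with a median of -0.25 that was -0.41 in air and -0.07 after ozone. Their summed level ran from 1298 to 3056 CPM on the control diet and from 1359 to 2275 CPM on the DHA diet. Of 10 skeletal muscle genes 3 fell (30%, against 3.92% of all genes), or 1 without control-diet air library 1 or 2 or DHA-diet air library 5, with a median of -0.39 and summed levels of 128 to 269 CPM on the control diet and 91.9 to 174 CPM on the DHA diet. Acta1, skeletal alpha-actin, had a log2 fold change of -1.60 ± 0.37 (adjusted p = 0.013). Of 14 adipocyte genes 1 fell (7.14%), with a median of -0.27 that was -0.50 in air and -0.03 after ozone and summed levels of 483 to 739 CPM and 419 to 671 CPM. Of 7 erythroid genes 3 rose (42.9%, against 3.16% of all genes), with a median of 0.44 and summed levels of 153 to 226 CPM on the control diet and 205 to 428 CPM on the DHA diet. The erythroid median was 0.23 in air and 0.94 after ozone. In the edgeR interaction test 3 of the 7 had an unadjusted p under 0.05. Alas2, the heme synthesis enzyme gene of red cells, rose by 0.67 ± 0.18 (adjusted p = 0.0231). The globin genes Hba-a2, Hbb-bs and Hbb-bt were at 0. Ribosomal protein genes, which mark the split of the control-diet air libraries, rose in 4 of 76 cases (5.26%, against 3.16%) with a median of 0.06. Single libraries left out moved that count between 1, without control-diet air library 1 or 2 or DHA-diet air library 1, and 12, without control-diet air library 6, and 34 of 76 were called without control-diet air libraries 4 to 6. The part of these tissues and of that split in the changes described here was not tested.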

How the data were processed

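RNA of 24 mouse lung libraries was measured by RNA sequencing. The deposited table holds raw counts per gene from the authors' pipeline, and per the submitters' processing notes it was made in Partek with STAR, HTSeq and the mm39 build. Versions, annotation and strandedness: not given in the sources used here. Without strand, reads of a gene and an overlapping antisense gene cannot be told apart. The counts of Scgb1a1, by far the highest, are stored rounded to 3 digits.

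Counts were filtered with edgeR 4.0.16 (R 4.3.3; filterByExpr by group, minimum count 10, minimum total 15), scaled by TMM and fitted by the quasi-likelihood model with diet and exposure as terms (21 residual degrees of freedom). A model of 4 group means on the same libraries (20 residual degrees of freedom) gave the air, ozone and interaction tests. P-values were adjusted by Benjamini-Hochberg over all tested genes, with 0.05 as the threshold. CPM values use TMM-scaled totals, log2 CPM a prior count of 2. Groups came from the sample titles. Lists are described by counts and medians, with no test of their own. The members and the 57 lists (30 pathways, 27 cell types) were chosen with earlier results of these data known.

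Named genes are a selection of the 10 largest changes in each direction (mean of at least 5 CPM, no predicted gene models), the 10 smallest p-values, and up to 4 called members of each list by p, with the smallest p of a list that had none. Tekt2, Dnah10, Foxj1, Nphp4, Kif9, Cfap206, Scgb1a1, Isg15, Irf7, Oas1a, Oas3, Ifit1, Col4a1, Tsc22d3, Scd1, Fasn, Fads1, Fads2, Rarb, Dhrs3, Adh1, Emc7, Sh3pxd2a, Sparcl1 and Col8a2 were added after their values were seen. Sgk1 was named only for its promoter motif and is not in the later counts of named genes. Replicates of a group differed by 2.92 to 17.3 times sampling noise, so none was a duplicate. Alternatives used limma 3.58.1, DESeq2 1.42.0 and sva 3.50.0. The fit was tested on simulated data. Some genes are not reported here.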

Additional observations from a re-analysis of the deposited data

Results flagged for a closer look

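In each group of 6 libraries, a library was singled out where its gap to the nearest other library exceeded Dixon's 95% critical value. Among 85 named genes in 4 groups this happened 31 times in 340 comparisons, where chance gives about 1 in 20, or 17. Of the 31, 12 came from DHA-diet ozone library 1, which was the highest of its group for the glucocorticoid-linked genes Fkbp5 (69.3 CPM), Map3k6 (69.7 CPM), Mt2 (68.7 CPM) and Fam107a (18.6 CPM). The same library was the highest for the matrix and podosome genes Col4a1 (758 CPM), Spp1 (217 CPM) and Sh3pxd2a (183 CPM). It was the lowest for the cilium genes Tekt2 (9.98 CPM), Rsph1 (51.2 CPM) and Foxj1 (159 CPM), for the interferon gene Ifit1 (9.09 CPM) and for Fads6 (9.71 CPM).

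Other DHA-diet libraries were singled out less often. DHA-diet ozone library 2 was lowest for Npr3 (65.0 CPM) and highest for Kif9 (33.3 CPM), and library 5 was highest for Ifi44 (9.10 CPM) and Fads2 (81.9 CPM). In air, library 2 was highest for Hspa8 (884 CPM) and Acta1 (5.06 CPM) and lowest for Ptger2 (5.47 CPM). Library 5 was lowest for Gabrp (162 CPM) and highest for Cyp26b1 (28.6 CPM), and library 1 was highest for Isg15 (20.01 CPM).

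On the control diet in air, library 6 was highest for Zbtb16 (102.9 CPM) and lowest for Tekt2 (24.2 CPM) and the collagen gene Col8a2 (26.3 CPM), and library 5 was highest for Scd1 (1103 CPM) and Ptger4 (7.09 CPM). On the control diet after ozone, library 1 was lowest for Col6a1 (179 CPM) and Sparcl1 (469 CPM) and highest for Cfap206 (59.5 CPM), and library 6 was highest for Fam107a (9.91 CPM).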

How the results depend on the processing

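With RLE scaling, library totals alone, other count filters and the averaged contrast of the 4-group model, the counts of higher and lower genes stayed within 1.5 times of 510 and 634. The replicate numbers did not pair the libraries: the 36 same-numbered pairs had a mean correlation of -0.02 (-0.21 to 0.10), and 0 of 24 libraries was closest to its own number. With the replicate block, 345 genes were higher, 457 lower and 85 called in air. Without the exposure term 196 were higher and 250 lower, at an adjusted p under 0.01 the counts were 100 and 105 (20 in air), and with a fold change of at least 1.5 they were 16 and 39 (26 in air). With 1 surrogate variable they were 0 and 0, with 76 called in air. DESeq2 called 589 genes in air, 75 after ozone and 5 for the interaction, and limma-voom 849, 19 and 2. Library sets were left out after the data were seen: without control-diet air libraries 1 to 3 the counts were 9 higher, 4 lower and 0 in air, without libraries 4 to 6 they were 1004, 1105 and 1551, with 27 after ozone and 4 for the interaction, and without DHA-diet ozone libraries 1 and 2 there were 747 in air. The cause of these shifts was not tested.

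Leaving out 1 library at a time gave 285 to 737 higher genes, 338 to 933 lower genes, 49 to 716 called in air, 0 to 144 after ozone and 0 to 3 for the interaction. Fewest higher and lower genes came without control-diet air library 2 (285 and 338) or 1 (297 and 374), and 335 were higher without DHA-diet air library 5. In air, 49 and 53 came without control-diet air libraries 1 and 2, 716 without library 6 and 654 without DHA-diet ozone library 1. After ozone, 144 came without DHA-diet ozone library 2. Of 77 called named genes, 58 stayed called in every fit without 1 library, 11 without control-diet air libraries 1 to 3 and 70 without DHA-diet ozone libraries 1 and 2. With the surrogate variable the log2 fold changes of Foxj1 (0.019), Scgb1a1 (0.017) and Cfap206 (0.0013) turned positive, as did that of Fasn without control-diet ozone library 6 (0.0035, range without 1 library -0.071 to 0.0035). No fit varied the depth, so what depth limits was not tested.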
